A study of Mus musculus with 8 samples.

Results

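Lens epithelial and proliferation markers were examined in RNA of mouse lens fiber cells (FC). The group holds 8 genes that were listed by symbol, of 35275 genes listed in the FPKM table, and each symbol matched 1 gene. Of the 8 genes, 5 were listed as markers of the lens epithelium (Foxe3, Pdgfra, Cdh1, Gja1 and Dkk3) and 3 as markers of dividing cells (Mki67, Top2a and Ccna2). They were meant to judge how much epithelium was carried into each pool of FC. The study compared C57BL/6J mice that were born to dams in a whole-body chamber and exposed to cigarette smoke (CS) for 5 hours/day and 5 days/week over 3.5 months with untreated control (Ct) mice of the same age and strain that were kept in the animal facility. Each group was sequenced as 4 libraries, each from the pooled FC of the right eyes of 4 mice, so that animals within a pool could not be told apart. The methods of the study give 2 male and 2 female pools per group without naming them, and Xist was at 0 to 0.0113 FPKM in replicates 1 and 2 and at 41.1 to 49.0 FPKM in replicates 3 and 4 of both groups.

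The lens is covered on its anterior side by a single layer of epithelial cells. Cells of this layer divide, move to the equator, leave the cell cycle and elongate into fibers, which fill the lens and later lose their nuclei. FOXE3, a forkhead transcription factor, is confined in the lens to this epithelium and keeps its cells growing. The receptor PDGFRA receives PDGF, a growth factor of the lens. E-cadherin (Cdh1) and connexin 43 (Gja1) join epithelial cells to each other, whereas fibers use N-cadherin (Cdh2) and connexin 46 (Gja3). DKK3 is a secreted glycoprotein of the Dickkopf family. Ki-67 (Mki67) coats chromosomes of cycling cells, topoisomerase II alpha (Top2a) untangles DNA before it is divided, and cyclin A2 (Ccna2) drives cells through S and G2 phase. FC were taken from the lens with forceps after the epithelium had been separated, and RNA of these 8 genes in a pool of FC can come from epithelial cells or from fibers.

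Promoter sequences of Mki67 and Top2a are shown because genes of dividing cells carry known elements there, the CCAAT box and the CHR (cell cycle genes homology region). The CCAAT box binds the activator NF-Y, and through the CHR such genes are kept silent in cells that have left the cycle. An entry in the RefSeq promoter table of GRCm38.p6 was found for 5 of the 8 genes. The 250 bases before the transcript start are given 5′ to 3′ on the gene's strand, and capitals mark CCAAT (or ATTGG on the other strand), TTTGAA (or TTCAAA) and TTCGAA, which do not overlap in these windows.
Mki67, chr7:135716380-135716629, minus strand: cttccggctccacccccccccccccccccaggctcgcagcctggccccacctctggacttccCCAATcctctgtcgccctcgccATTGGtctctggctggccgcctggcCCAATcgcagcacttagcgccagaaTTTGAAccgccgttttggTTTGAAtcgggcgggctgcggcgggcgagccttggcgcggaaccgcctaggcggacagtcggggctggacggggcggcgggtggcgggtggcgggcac
Top2a, chr11:99024190-99024439, minus strand: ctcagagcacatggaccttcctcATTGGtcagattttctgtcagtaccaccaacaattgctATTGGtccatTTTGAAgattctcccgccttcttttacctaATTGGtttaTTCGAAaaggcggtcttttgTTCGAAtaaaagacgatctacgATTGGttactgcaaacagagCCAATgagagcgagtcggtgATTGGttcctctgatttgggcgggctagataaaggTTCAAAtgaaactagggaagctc
The window of Mki67 held 3 CCAAT and 2 TTTGAA, and that of Top2a held 6 CCAAT, 2 TTTGAA and 2 TTCGAA. Over all 32851 promoters of the table, 10.1% held at least 2 CCAAT, 1.81% at least 2 TTTGAA and 0.0183% at least 2 TTCGAA. These matches describe letters and were not tested as binding sites.

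RNA was measured as FPKM, fragments mapped to a gene scaled by its length and by the depth of the library, which sets genes of different length on 1 scale. Relative to untreated Ct replicate 1, depth was between 0.910 and 1.17, which came to an estimated 18100000 to 23300000 fragments per library. Beaded filament gene Bfsp1 was at 6993 to 8094 FPKM and the lens water channel gene Mip at 2364 to 2532 FPKM, as befits the label of FC. Lens epithelial genes were nevertheless measured in every library, and they set 1 library apart: untreated Ct replicate 3 held the highest level of 4 of the 5 epithelial genes. Differences, spreads and correlations of the epithelial genes are therefore also given without this library. In bulk RNA, fewer cells of a type and less RNA per cell cannot be told apart.

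Foxe3 (chromosome 4, 114925147 to 114926013 of GRCm38, minus strand) was the highest of the epithelial genes other than Dkk3. It was at 33.1, 34.8, 64.0 and 25.1 FPKM in the 4 untreated Ct libraries and at 28.9, 32.5, 34.6 and 17.5 FPKM in the 4 CS-exposed libraries, in the order of the replicate numbers. Untreated Ct replicate 3 was the high library and CS-exposed replicate 4 the low one, and the groups overlapped. Between 328 and 1290 reads stood behind each value, so that counting error came to 4.31% while the values varied by 40.0% (coefficient of variation over 8 libraries). The annotation gives this gene a length of 867 bases in its exons.

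Cdh1 (chromosome 8, 106603351 to 106670246, plus strand) was at 2.26, 3.09, 6.22 and 2.98 FPKM in untreated Ct mice and at 2.10, 3.70, 4.17 and 2.22 FPKM in CS-exposed mice. Replicate 3 was the highest library of either group. N-cadherin, the fiber counterpart, ranged only from 32.7 to 34.1 FPKM in the same libraries. Cdh1 thus came to 6.66, 9.06, 18.7 and 8.86% of Cdh2 in untreated Ct libraries and to 6.20, 11.3, 12.4 and 6.54% in CS-exposed libraries, with overlapping groups (two-sided exact permutation test on the log2 ratio, p = 0.629).

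Gja1 (chromosome 10, 56377330 to 56402513, plus strand) had the widest range of the 5 epithelial genes, 5.05-fold. Its values were 3.56, 5.45, 9.25 and 3.42 FPKM in untreated Ct mice and 1.83, 3.53, 6.75 and 3.77 FPKM in CS-exposed mice, resting on 120 to 668 reads. Again replicate 3 was the highest of each group, and CS-exposed replicate 1 was the lowest library of all. Connexin 46 was far above connexin 43 per length, with Gja3 at 400.02 to 431 FPKM. Relative to Gja3, Gja1 came to 1.32 ± 0.696% (SD, n = 4) in untreated Ct mice and to 0.942 ± 0.460% (SD, n = 4) in CS-exposed mice (two-sided exact permutation test, p = 0.457).

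Pdgfra (chromosome 5, 75152292 to 75198215, plus strand) was the lowest of the 5, at 1.30, 1.36, 2.56 and 0.774 FPKM in untreated Ct mice and at 1.40, 1.90, 1.45 and 1.36 FPKM in CS-exposed mice. The highest and the lowest library were both untreated Ct pools, replicates 3 and 4, and the CS-exposed values lay between them. The related receptor gene Pdgfrb was at means of 13.1 and 13.3 FPKM in untreated Ct and CS-exposed mice (SD 0.711 and 1.1, n = 4 each), above Pdgfra in all 8 libraries. Pdgfa, which codes for the PDGF A chain, was at 3.11 ± 0.695 FPKM in untreated Ct mice and 3.43 ± 0.676 FPKM with CS (SD, n = 4 each), and Pdgfb, Pdgfc and Pdgfd did not exceed 0.138 FPKM in any library.

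Dkk3 (chromosome 7, 112116017 to 112159057, minus strand) did not behave like the other 4 epithelial genes. It was at 451, 433, 460 and 440 FPKM in untreated Ct mice and at 434, 456, 477 and 445 FPKM in CS-exposed mice, a range of 1.1-fold. The library that stood apart for the others was close to the rest here. By level it ranked 116 among the 9794 genes whose group mean reached 1.0 FPKM in untreated Ct or CS-exposed mice, above Gja3 in every library. Its level and its small range go against its use as a marker of epithelium carried into these pools, and it is kept below only as 1 of the 5 genes listed as epithelial, with the correlations among these genes also given without it. Among secreted Wnt antagonists, Sfrp1 was abundant, with means of 302 and 299.9 FPKM in untreated Ct and CS-exposed mice (SD 11.5 and 7.17, n = 4 each). Dkk4, Dkkl1 and Sfrp2 were listed at 0 in all 8 libraries, and Dkk1 and Dkk2 did not exceed 0.186 FPKM. Of the receptors for other Dickkopf proteins, Lrp6 was at 3.60 ± 0.245 FPKM and 3.26 ± 0.108 FPKM, Kremen1 at 1.58 ± 0.558 FPKM and 1.21 ± 0.198 FPKM (SD, n = 4 each), and Lrp5 at no more than 0.0536 FPKM.

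**Figure D1:**
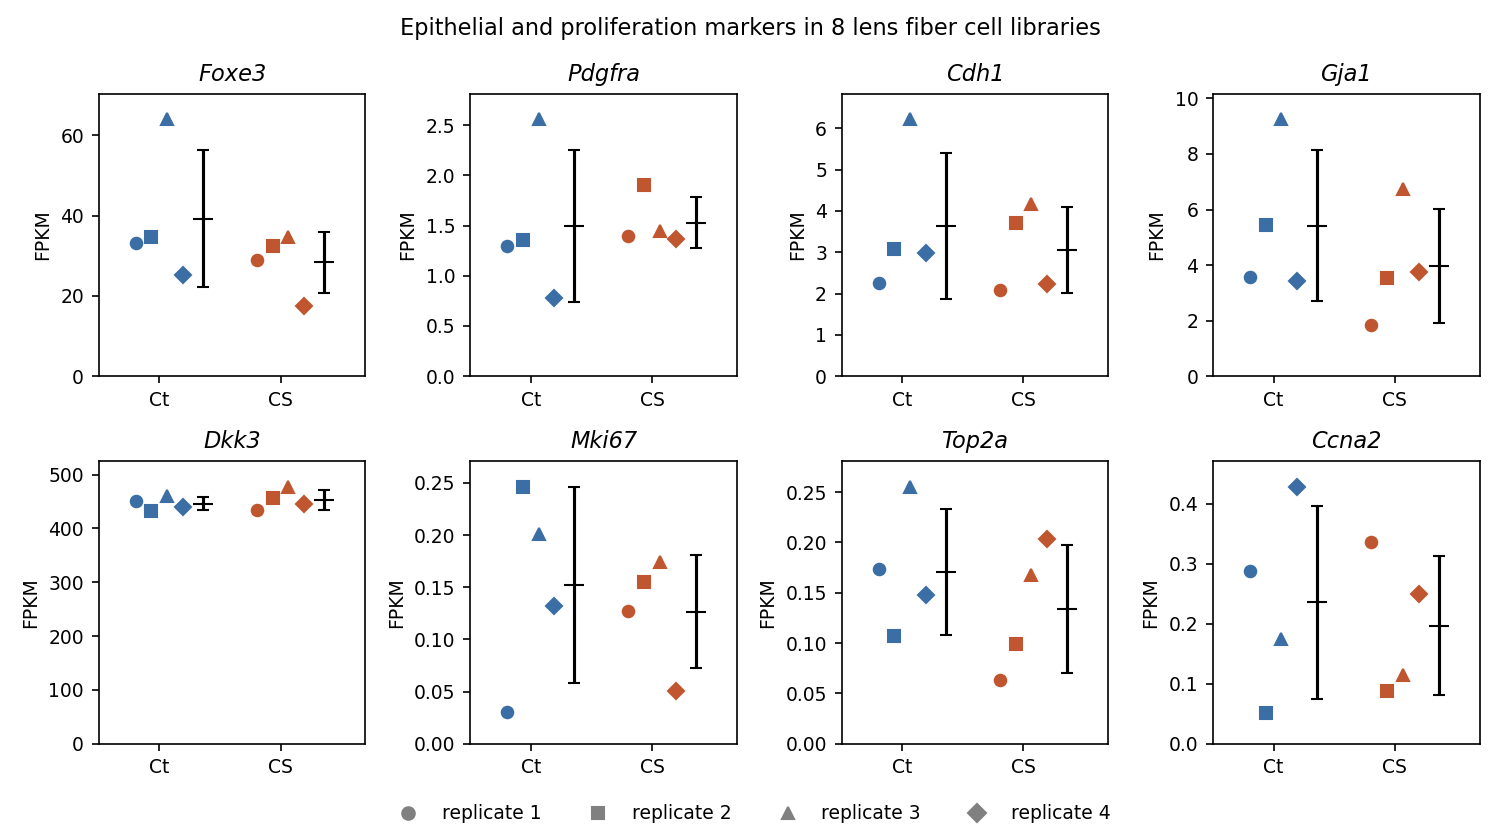
FPKM (y axes, linear, from 0) of the 8 marker genes in the 4 untreated Ct (blue) and 4 CS-exposed (orange) libraries, with the replicate number as the symbol and black bars for the mean ± SD. Foxe3, Pdgfra, Cdh1 and Gja1 are highest in untreated Ct replicate 3 (triangle), Dkk3 varies only from 433 to 477 FPKM, and the 3 proliferation genes stay at or under 0.429 FPKM.

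The 3 proliferation genes were all far below 1.0 FPKM. Mki67 (chromosome 7, 135689784 to 135716361, minus strand) was at 0.030, 0.246, 0.201 and 0.132 FPKM in untreated Ct mice and at 0.127, 0.155, 0.174 and 0.0505 FPKM in CS-exposed mice. These values rest on 6 to 49 reads. Within untreated Ct mice alone, the 95% Poisson intervals of replicate 1 (6 reads, 2.20 to 13.1) and replicate 2 (49 reads, 36.3 to 64.8) did not overlap, at nearly the same depth, which covers counting error only. Untreated Ct replicate 1 and CS-exposed replicate 4 were the low libraries.

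Top2a (chromosome 11, 98992943 to 99024189, minus strand) was at 0.173, 0.107, 0.255 and 0.148 FPKM in untreated Ct mice and at 0.0635, 0.0995, 0.168 and 0.204 FPKM in CS-exposed mice, on 7 to 31 reads. Ccna2 (chromosome 3, 36564865 to 36572150, minus strand) was at 0.288, 0.0513, 0.174 and 0.429 FPKM in untreated Ct mice and at 0.336, 0.0877, 0.115 and 0.250 FPKM in CS-exposed mice, on 3 to 23 reads. The libraries that were high for Ccna2 were replicates 1 and 4 of both groups, which were not the high libraries of Mki67. Summed over the 8 libraries, 236 reads fell on Mki67, 134 on Top2a and 105 on Ccna2, against 4973 on Foxe3, and counting error was 23.3, 26.8 and 34.3% per value.

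Other genes of the cell cycle were looked up from fixed lists. Of 17 genes of G2 and M phase, 2 reached a mean of 1.0 FPKM in either group, Prc1, which bundles microtubules of the spindle midzone (6.14 ± 0.931 FPKM and 6.11 ± 0.869 FPKM, SD, n = 4 each), and the kinase gene Aurka (1.62 ± 0.543 FPKM and 1.80 ± 0.897 FPKM). The other 15 did not exceed 0.924 FPKM in any library, and Cdk1, a kinase partner of cyclin A2, was at no more than 0.3 FPKM. Of 17 genes of S phase, 8 reached 1.0 FPKM. The highest were Pcna, the sliding clamp of DNA polymerase that also serves DNA repair (7.77 ± 0.410 FPKM and 8.36 ± 1.24 FPKM), and Mcm7, of the replicative helicase (3.28 ± 0.271 FPKM and 3.22 ± 0.417 FPKM). None of the 10 genes of both lists that could be tested had an unadjusted limma p value under 0.05, against 4.83% of all genes tested.

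The design compares CS-exposed with untreated Ct mice. In the limma fit over these 9794 genes, on log2(FPKM + 0.1), the 5 epithelial genes were tested and the 3 proliferation genes fell below the minimum. None of the 5 passed an adjusted p value of 0.05, which 0.0102% of all genes tested passed, and an unadjusted p value under 0.05, which 4.83% of all genes had (2.08% lower and 2.75% higher in CS-exposed mice), was reached by none. With limma-voom on the reads recovered from the FPKM steps, Foxe3 alone of the 5 was under 0.05 before adjustment and none was after it (limma adjusted p = 0.955 for Foxe3). For none of the 8 genes were the 2 groups free of overlap, as they were for 3.08% of all genes tested.

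Mean Foxe3 was 39.2 ± 17.0 FPKM in untreated Ct mice against 28.4 ± 7.63 FPKM with CS (SD, n = 4 each), a difference of -0.42 on the log2 scale (standard error 0.26, 95% interval -1.0 to 0.15, limma adjusted p = 0.956, exact permutation p = 0.343). Mean Gja1 was 5.42 ± 2.72 FPKM against 3.97 ± 2.04 FPKM, a difference of -0.46 (standard error 0.37, 95% interval -1.27 to 0.34, limma adjusted p = 0.956, exact permutation p = 0.457). Both intervals include 0, and neither difference exceeded the spread between libraries. For Cdh1 the difference was -0.21 (95% interval -0.85 to 0.44, limma adjusted p = 0.985) and for Pdgfra 0.13 (95% interval -0.50 to 0.76, limma adjusted p = 0.989). Dkk3 was measured most closely, with a difference of 0.02 (standard error 0.04, 95% interval -0.06 to 0.11, limma adjusted p = 0.985).

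Leaving out single libraries moved these differences. Without untreated Ct replicate 3, the log2 difference was -0.16 for Foxe3, -0.17 for Gja1, 0.08 for Cdh1, 0.41 for Pdgfra and 0.04 for Dkk3, and the limma adjusted p value of each was 1. Without untreated Ct replicate 4, the low library of Pdgfra, the difference of Pdgfra turned to -0.12. Leaving out CS-exposed replicate 1, a low library of Gja1 and Cdh1, gave -0.15 for Gja1 and -0.053 for Cdh1. Foxe3 was at -0.21 without CS-exposed replicate 4, its lowest library. In the other direction, Foxe3 came to -0.61 without untreated Ct replicate 4 and Gja1 to -0.76 without CS-exposed replicate 3, both under 0.05 before adjustment (limma adjusted p = 0.944 and 0.956). Dkk3 turned to -0.0025 without CS-exposed replicate 3. Over all genes tested, the median log2 difference was 0.0043 and the median absolute difference 0.0842.

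For the proliferation genes, which were below the minimum, an exact permutation test was used. Mean Mki67 was 0.152 ± 0.0941 FPKM in untreated Ct mice against 0.127 ± 0.0543 FPKM with CS (SD, n = 4 each), a log2 difference of -0.10 (exact permutation p = 0.771). Top2a had a difference of -0.23 (exact permutation p = 0.400) and Ccna2 of -0.12 (exact permutation p = 0.83). In a limma fit without a minimum FPKM, the 95% intervals were -0.94 to 0.74 for Mki67, -0.94 to 0.49 for Top2a and -1.14 to 0.91 for Ccna2. No difference of these genes was detected, with intervals this wide.

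**Figure D2:**
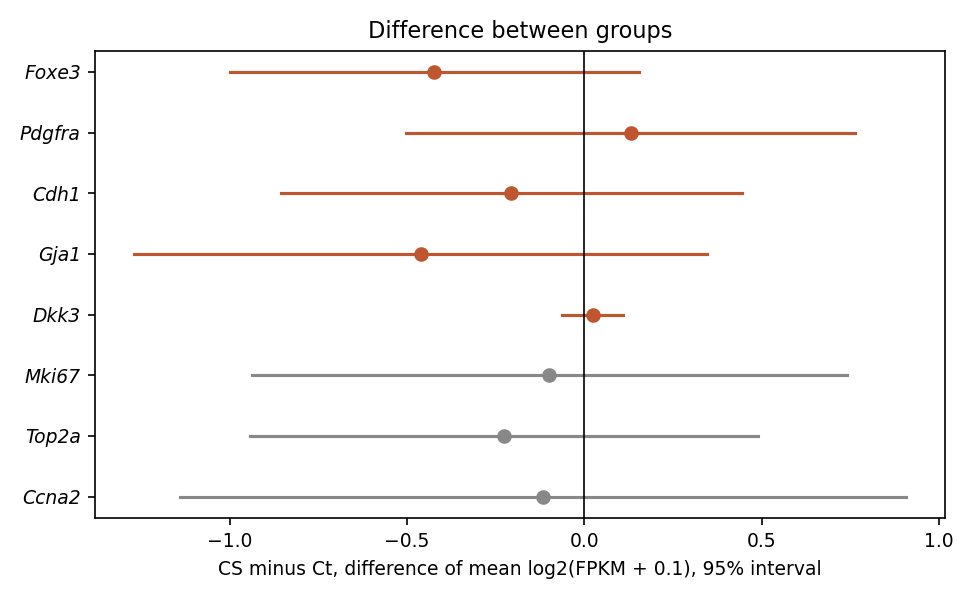
Difference of mean log2(FPKM + 0.1) between CS-exposed and untreated Ct libraries (x axis, 4 against 4) for the 8 marker genes, with 95% limma intervals. Orange genes were in the fit with a minimum of 1.0 FPKM, grey ones are from the fit without a minimum, and every interval includes 0, the narrowest being that of Dkk3 (-0.06 to 0.11).

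From library to library, 4 epithelial genes varied more than most genes. The SD within groups of log2(FPKM + 0.1) was 0.51 for Foxe3, 0.49 for Pdgfra, 0.55 for Cdh1 and 0.70 for Gja1, against a median of 0.17 over all genes tested. For Foxe3, 99.6% of the 500 genes nearest in mean FPKM had a smaller SD, for Gja1 99.4%, for Cdh1 97.4% and for Pdgfra 87.0%. Dkk3 had an SD of 0.05, and 22.2% of its 500 nearest genes had a smaller one. Without untreated Ct replicate 3 the SD was 0.38 for Foxe3, 0.31 for Pdgfra, 0.41 for Cdh1, 0.62 for Gja1 and 0.049 for Dkk3, against a median of 0.165. These shares are a description of the 8 libraries and were not tested.

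**Figure D3:**
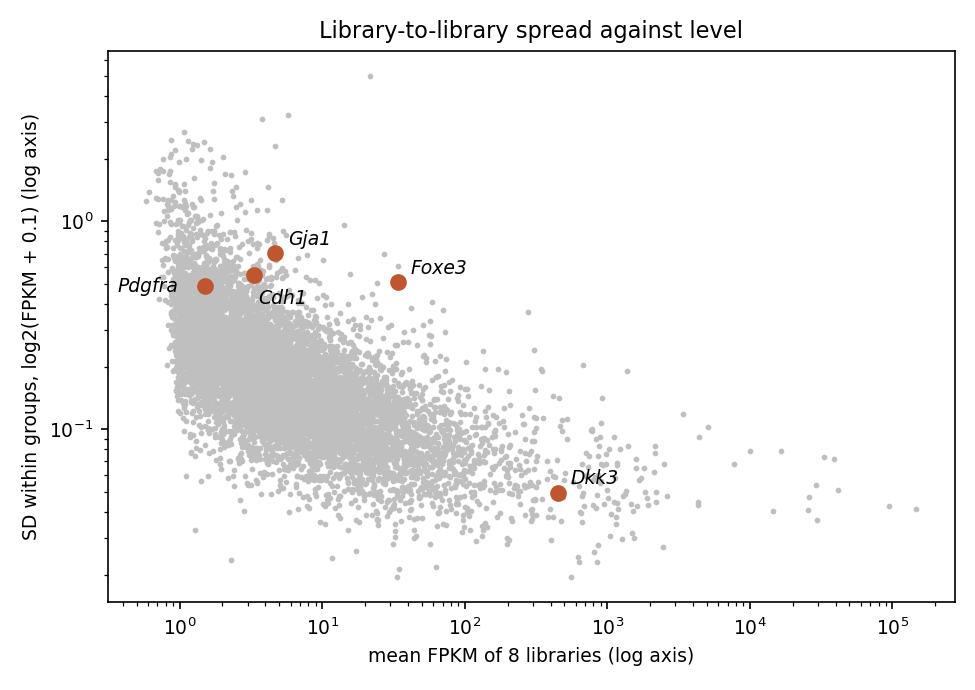
SD within groups of log2(FPKM + 0.1) (y axis, log) against mean FPKM of the 8 libraries (x axis, log) for the 9794 genes tested (grey) and the 5 epithelial genes (orange). Foxe3 lies above nearly all genes of its level, with an SD of 0.51, and Dkk3 lies among the genes of its level, with an SD of 0.05.

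Libraries high in Foxe3, Pdgfra, Cdh1 or Gja1 were mostly high in the other genes of this set. Over the 8 libraries, their 6 pairs had a Pearson r from 0.488 to 0.838, and the 10 pairs with Dkk3 included had one from 0.384 to 0.838. The closest pair was Cdh1 and Gja1 (r = 0.838 with an exact permutation p of 0.00875, and a Spearman coefficient of 0.714 with one of 0.0576), followed by Foxe3 and Cdh1 (r = 0.791 with an exact permutation p of 0.0226, and a Spearman coefficient of 0.738 with one of 0.0458). After Benjamini-Hochberg adjustment over the 28 pairs of the 8 genes, no pair passed 0.05, and the adjusted exact permutation p values of these pairs were 0.245 and 0.316 for r and 0.278 for both Spearman coefficients. Taken as deviations from the group means, r was 0.835 and 0.794. Without the 2 libraries farthest from the median of the first gene, r fell to 0.575 for Cdh1 and Gja1. It fell to 0.343 for Foxe3 and Cdh1, so that this pair rests on those libraries. Of the 6 pairs, 5 stayed above 0 in this setting, and Pdgfra and Gja1 fell from 0.488 to -0.0418. Without untreated Ct replicate 3, the median r of the 6 pairs was 0.294, against 0.656 with it.

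Pairs with Dkk3 had r between 0.384 and 0.618. When each library was centred on the median of its tested genes, 2 of these 4 pairs fell below 0 and their highest r was 0.138, whereas the 6 pairs of the other genes were between 0.440 and 0.824. The library medians ranged from -0.0439 to 0.0605 on the log2 scale. The 3 proliferation genes did not move together, with r of -0.606 for Mki67 and Ccna2, -0.210 for Mki67 and Top2a and 0.0875 for Top2a and Ccna2 (exact permutation p = 0.117, 0.612 and 0.835, and 0.333, 0.659 and 0.866 when adjusted over the 28 pairs). Of the 15 pairs of a gene listed as epithelial with a proliferation gene, 10 had r above 0, the highest being Gja1 and Top2a (r = 0.712, exact permutation p = 0.0458, adjusted 0.333), which came to -0.0455 without the 2 libraries farthest from the median of Gja1, and Cdh1 and Mki67 (r = 0.665). The 5 pairs below 0 were those with Ccna2, from -0.531 to -0.283, of which Dkk3 and Ccna2 turned to 0.318 when libraries were centred on their medians.

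**Figure D4:**
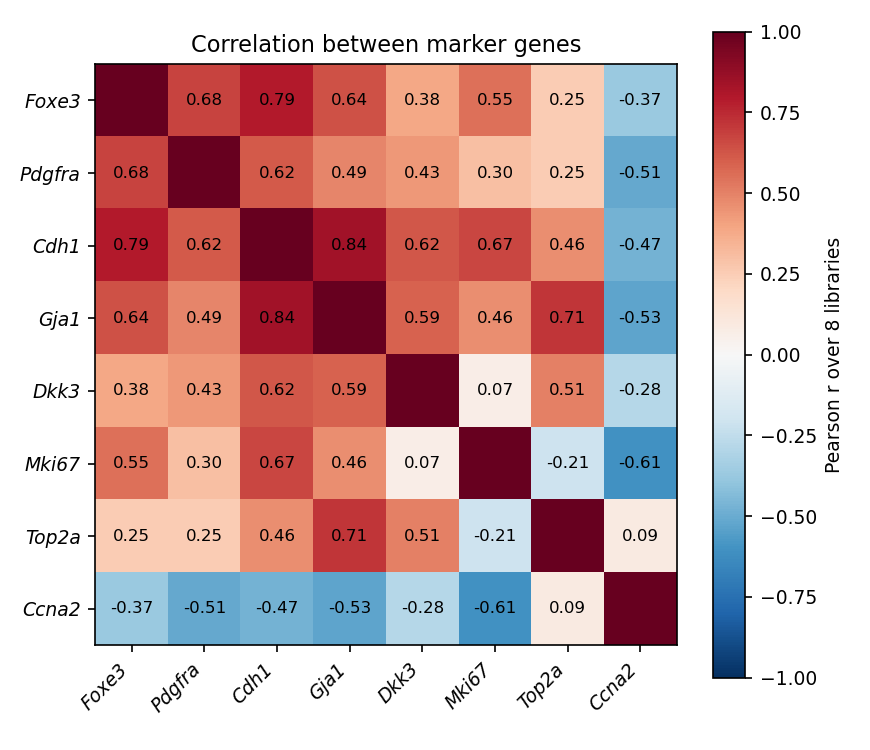
Pearson r of log2(FPKM + 0.1) over the 8 libraries for each pair of the 8 marker genes (red above 0, blue below 0). The block of the 5 genes listed as epithelial, Dkk3 included, is above 0 throughout, up to 0.84 for Cdh1 and Gja1, and Ccna2 is below 0 with each of them.

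Genes with a pattern like that of the epithelial genes were ranked by the mean of their Pearson r with the 5 genes listed as epithelial, Dkk3 included, over the 8 libraries, as a description. Of 9789 other genes, 147 (1.5%) had a mean r of at least 0.7, and the median was 0.12. Without untreated Ct replicate 3, only 2 genes reached 0.7, so that this number rests on that library. The 10 most alike were Nbl1, an antagonist of BMP (mean r = 0.811), App, the amyloid precursor protein (0.808), Slc25a36, a mitochondrial carrier (0.802), Slc7a11, the cystine and glutamate exchanger (0.802), Slc22a17, a lipocalin receptor (0.800), Zfp827 (0.792), Tkt, the transketolase of the pentose phosphate pathway (0.790), Pdxk, the pyridoxal kinase (0.789), Antxr1 (0.789) and Rsbn1l (0.788). Of these 10 genes, 9 were highest in untreated Ct replicate 3, and without it their mean r was between 0.623 and 0.697. Their ranges differed in size, from 3.96 to 9.19 FPKM for Nbl1 and 0.845 to 2.83 FPKM for Slc7a11 to 128 to 159 FPKM for App. For the proliferation genes no gene reached a mean r of 0.7, and the highest were Pgls (0.407), Pomgnt2 (0.398), Fpgs (0.397), Trappc9 (0.394) and Fam76a (0.393).

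Of 10 genes listed as transcription factors of the lens, 3 were highest in untreated Ct replicate 3 (Pax6, Mab21l1 and Prox1). Another 5 were highest in CS-exposed replicate 3 and the other 2, Maf and Tfap2a, in untreated Ct replicates 1 and 2. The mean r of the 10 with the 5 genes listed as epithelial ran from -0.239 for Maf to 0.671 for Pax6, with a median of 0.291. Pax6, the regulator of eye development that stays high in the lens epithelium, was at 19.4 to 26.3 FPKM, and without untreated Ct replicate 3 its mean r was 0.407. Those of the highest level beside Hsf4 and Prox1 were Maf (63.2 to 68.4 FPKM), Pitx3 (57.6 to 68.5 FPKM, mean r 0.314) and Sox2 (31.2 to 40.4 FPKM, mean r 0.268). Prox1, a regulator of fiber differentiation, was at 43.1 to 45.9 FPKM, so that Foxe3 came to 139% of Prox1 in untreated Ct replicate 3 and to 40.5 to 79.5% in the other libraries. All 10 genes were tested, and 1, Hsf4, was under an unadjusted limma p value of 0.05, against 4.83% of all genes. Hsf4, a heat shock factor of fibers, was at 138 ± 2.55 FPKM in untreated Ct mice and 147 ± 4.03 FPKM with CS (SD, n = 4 each). Its log2 difference was 0.09 (limma adjusted p = 0.956). The median log2 difference of the 10 was 0.04. Of the 10 genes of the E-cadherin complex and its repressors, 7 were tested and none had an unadjusted limma p value under 0.05. Beta-catenin (Ctnnb1), which binds the tail of E-cadherin, had means of 95.5 and 97.9 FPKM in untreated Ct and CS-exposed mice (SD 2.29 and 4.76, n = 4 each). Of the 5 connexins and partners, 4 were tested with the same outcome, and of 9 fiber genes, all tested, 1 was under an unadjusted p value of 0.05, against the same 4.83% (Crygb, a gamma crystallin gene, log2 difference 0.1, limma adjusted p = 0.956).

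Markers of other cells were measured in the same libraries, since Cdh1 and Gja1 are also used by the corneal epithelium and Gja1 and Pdgfra by glia and connective tissue. Of the 4 markers of corneal epithelium, 2 were tested. Aldh3a1, an aldehyde dehydrogenase known as a crystallin of the mouse cornea, was at 24.6, 33.5, 64.0 and 20.5 FPKM in untreated Ct mice and at 29.3, 38.1, 42.2 and 20.3 FPKM in CS-exposed mice. Over the 8 libraries it had r of 0.894 with Foxe3, 0.867 with Cdh1, 0.836 with Pdgfra and 0.680 with Gja1, which without untreated Ct replicate 3 came to 0.764, 0.710, 0.672 and 0.406. The defining keratin of the cornea, Krt12, was listed at 0 in 6 libraries and did not exceed 0.0895 FPKM, and Krt5 was at 0.303 to 6.90 FPKM and highest in CS-exposed replicate 2. Krt14, a basal keratin below the minimum for testing, was at 0.977, 0.358, 0.811 and 0.488 FPKM in untreated Ct mice and at 0.140, 0.230, 0.0861 and 0.163 FPKM with CS. Its groups did not overlap, and its lowest library was CS-exposed replicate 3, where Aldh3a1 was high. Groups were free of overlap for 3.08% of all genes tested, a set that leaves out genes as low as Krt14. Aldh3a1 made up most of the summed level of the corneal list in every library. That sum was 22.4 to 67.3 FPKM in untreated Ct mice and 20.8 to 45.2 FPKM in CS-exposed mice. Which cells the Aldh3a1 RNA came from was not tested, nor was the part of corneal cells in the levels of Cdh1 and Gja1.

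**Figure D5:**
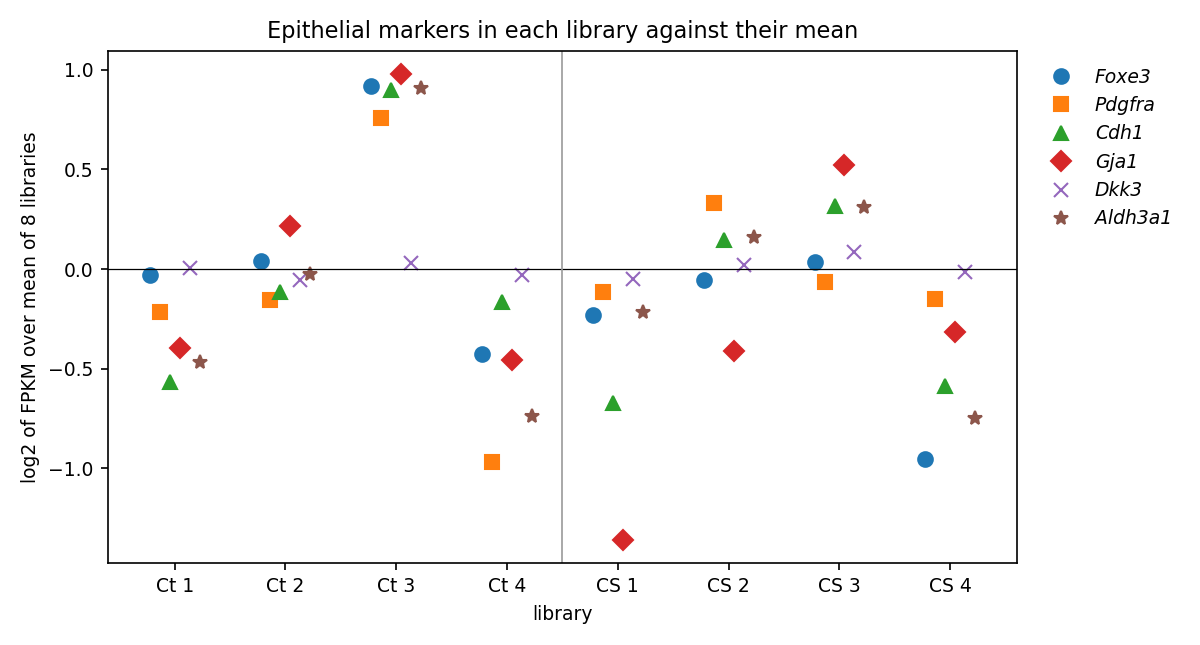
Log2 ratio of FPKM to the mean of the 8 libraries (y axis) for the 5 genes listed as epithelial and Aldh3a1 in each library (x axis, untreated Ct to the left of the line and CS-exposed to the right). In untreated Ct replicate 3 all genes but Dkk3 (cross) are well above 0, with Foxe3 at 64.0 FPKM, and Dkk3 stays close to 0 in every library.

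Of the 10 rod photoreceptor genes, 9 were tested and 8 were higher in CS-exposed mice at an unadjusted limma p value under 0.05, against 2.75% of all genes tested, and none after adjustment, with a summed level of 11.0 to 29.3 FPKM in untreated Ct mice and 33.2 to 93.8 FPKM in CS-exposed mice. Summed levels of the pigment epithelium list were 0.536 to 2.72 FPKM and 1.29 to 6.80 FPKM, and those of the glia list 6.19 to 9.54 FPKM and 6.78 to 9.70 FPKM in untreated Ct and CS-exposed mice. Within the glia list, Aqp4, a water channel of glia, was at 0.831, 1.04, 2.35 and 1.35 FPKM in untreated Ct mice and at 0.895, 1.35, 1.66 and 0.600 FPKM with CS, highest in untreated Ct replicate 3 (mean r with the 5 genes listed as epithelial 0.685, and 0.481 without that library). The most abundant gene of the list, Glul, glutamine synthetase, had means of 5.74 and 6.54 FPKM and was highest in CS-exposed replicate 3 (mean r 0.398). Gfap was highest in untreated Ct replicate 2 (mean r 0.232), and Slc1a3 did not exceed 0.0549 FPKM, on at most 5 reads. Connective tissue markers summed to at most 0.489 FPKM and markers of vascular endothelium to at most 0.490 FPKM in any library, with Col1a1 at no more than 0.0799 FPKM. Blood and immune markers summed to 0.284 to 2.02 FPKM and 0.493 to 20.6 FPKM, where the globin genes Hba-a1 and Hbb-bs made up the upper end and Ptprc did not exceed 0.0282 FPKM. All 10 rod genes were highest in CS-exposed replicate 3. Of the 6 pigment epithelium genes, Rpe65 was highest in that library too and the other 5 in CS-exposed replicate 4, as were both globin genes. Unadjusted limma p values under 0.05 were also those of Rpe65 (log2 difference 2.34, limma adjusted p = 0.956), Gfap of the glia list (-1.45, limma adjusted p = 0.956) and Hba-a1 (2.42, limma adjusted p = 0.956). The part of these cells in the levels of the 8 marker genes was not tested.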

How the data were processed

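RNA of lens FC was compared in 8 libraries, 4 of CS-exposed and 4 of untreated Ct mice, grouped by sample title. Reads were aligned by the authors with STAR 2.5 to GRCm38, counted with HTSeq 0.6.1 and deposited as FPKM per gene. The annotation release is not given in the sources used here. Group means, a log2 fold change and p-values of the authors' DESeq2 comparison, also in the table, were not used.

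The 9794 genes whose mean reached 1.0 FPKM in at least 1 group were fitted on log2(FPKM + 0.1), which understates changes of low genes, with limma 3.58.1 in R 4.3.3 (trended eBayes, two-sided, Benjamini-Hochberg over all genes). Exact permutation tests between groups ran over all 70 assignments, where the smallest p is 0.0286, and those of correlations over all orders of the 8 libraries. Other values came from Python 3.11.15 with scipy 1.17.1. Same-numbered pools held different mice, and the p-values measure the spread between pools. Whole reads were recovered from the steps of low FPKM (tolerance 0.03 reads) for 9770 tested genes (99.8%). The fragments per library rest on exon lengths of GENCODE M21, for which the same value came from 849 of the 9284 genes tried. Intervals on reads cover counting error only. Scripts were tested on simulated data.

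The 8 genes, the marker lists and the alternatives were chosen with earlier results of these data known. Genes named are the 8, list members with an unadjusted p-value under 0.05 and up to 4 more of the highest mean FPKM per list, and the genes most alike in pattern (10 for the epithelial and 5 for the proliferation genes). List members named for a level at or near 0 (Cdk1, Pdgfc, Lrp5 and genes of the Dickkopf list), Pax6, Mab21l1 and Tfap2a, promoter motifs, Aldh3a1 as a single gene, the Xist covariate, limma-voom and the spreads and likeness without untreated Ct replicate 3 were chosen after seeing the data. Of the lists, Lim2 was left out because 2 rows share its symbol. Proteome and metabolome were not analysed here. Some genes of the lists are not reported here.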

Additional observations from a re-analysis of the deposited data

Results flagged for a closer look

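Pdgfra reached 1.90 FPKM in CS-exposed replicate 2, while the other 3 CS-exposed libraries lay at 1.36 to 1.45 FPKM, a gap above Dixon's 95% critical value for 4 samples. It was the only such library in the 16 groups of 4 values examined (8 genes in 2 groups), where chance gives 0.8. Between 194 and 289 reads stood behind these values.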

How the results depend on the processing

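For the 8 marker genes, 123 of 134 values under other settings kept their direction and no gene passed an adjusted p value of 0.05, the smallest being 0.61 (limma). Reversals, of differences within their intervals, came from Dkk3 under quantile normalization (-0.0142) and from leaving out single libraries. When each library was left out in turn, log2 differences ranged from -0.609 to -0.16 for Foxe3, -0.122 to 0.413 for Pdgfra, -0.392 to 0.0818 for Cdh1, -0.76 to -0.151 for Gja1, -0.00252 to 0.0434 for Dkk3, -0.387 to 0.0863 for Mki67, -0.367 to -0.0695 for Top2a and -0.453 to 0.149 for Ccna2. The number of genes past an adjusted p value of 0.05 was 1 as reported, 0 to 1 when each library was left out (0 without untreated Ct replicate 4), 0 without a minimum FPKM (862 with an unadjusted p value under 0.05, more genes being tested), 0 with eBayes without a trend and 2 with limma-voom. Unadjusted, 473 genes were under 0.05, and 418 to 525 when each library was left out. The share of lower genes among them was 43.1%, and 38 to 56.5% when each library was left out. It was 56.5% without CS-exposed replicate 3 and 51.8% without untreated Ct replicate 4. With median centring the share was 49.6%, and with eBayes without a trend it was 50%. The causes were not tested.

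With the replicate number as a block, 5 genes passed an adjusted p value of 0.05, none of them a marker gene. Foxe3 had a limma adjusted p = 0.61 and Gja1 a limma adjusted p = 0.816, both under 0.05 before adjustment, with unchanged differences of -0.425 and -0.462. Same-numbered libraries deviated together with r of 0.012, 0.0777, 0.111 and 0.161 across genes, not all above 0.1. Their mean r was 0.0904, against -0.0301 for libraries of different numbers. Same-numbered libraries come from different mice, although they share the Xist class. The number was therefore not taken as a pairing. With the Xist level as a covariate both had a limma adjusted p = 0.952. The proliferation genes were not run with quantile normalization, other eBayes settings or the block, and are below a minimum mean of 0.5 FPKM. Mki67, Top2a and Ccna2 rest on 3 to 49 reads per library, and their values varied by more than counting error.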
